A study of Mus musculus with 18 samples.

Results

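The 9 genes described here encode the metallothioneins Mt1 and Mt2, the zinc-sensing transcription factor Mtf1 and the zinc transporters Slc30a1, Slc30a4, Slc39a1, Slc39a6, Slc39a10 and Slc39a14. They were chosen by symbol, with earlier results of these data known. All 9 were found among the 16909 gene symbols of the count table and among the 12465 genes tested. The study sequenced polyadenylated RNA from mouse bone marrow macrophages, with 18 libraries in 4 groups. Con, the mock group, had 3 libraries. The LPS group, the positive control for inflammation, had 5 libraries of cells given lipopolysaccharide, a surface molecule of Gram-negative bacteria that macrophages sense as a sign of infection. The STSABs and UVABs groups, with 5 libraries each, received apoptotic bodies, small vesicles shed by cells undergoing programmed death. These came from cells called hucMSC in the labels, were induced with STS or with UV, and are described as anti-inflammatory treatments. The labels give no mouse strain, sex or age and no dose or time. They do not say whether cells given apoptotic bodies also received LPS, or whether libraries came from separate cultures or animals, so the p-values reflect the variation among the libraries alone, and that variation may be technical.

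Zinc in a cell is held in a narrow range by proteins that bind it, move it and sense it. Metallothioneins are small, cysteine-rich proteins that bind zinc and copper. SLC30 proteins move zinc out of the cytosol, to the outside or into vesicles, and SLC39 proteins move it into the cytosol. Mtf1 binds short DNA motifs, the metal response elements, when cytosolic zinc rises, and Mt1, Mt2 and Slc30a1 are its classical targets. In macrophages, zinc and metallothioneins are known for their part in the response to bacterial products and in withholding metals from microbes.

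The bases before the start of 3 classical Mtf1 targets are shown with their letter matches to the metal response element. They come from RefSeq on build GRCm38.p6, while the submitters' processing notes name mm39, so the coordinates belong to the first build alone. Capitals mark each match to the core of the metal response element, TGCACNC or TGCGCNC, on either strand, and all are written 5′ to 3′ along the gene. The first line is the whole window of 250 bases before the start of Mt2, at chr8:94172368-94172617 on the plus strand. The other lines are 30 bases around the match of Mt1, at chr8:94179055-94179084, and of Slc30a1, at chr1:191906727-191906756, both on the plus strand.
Mt2: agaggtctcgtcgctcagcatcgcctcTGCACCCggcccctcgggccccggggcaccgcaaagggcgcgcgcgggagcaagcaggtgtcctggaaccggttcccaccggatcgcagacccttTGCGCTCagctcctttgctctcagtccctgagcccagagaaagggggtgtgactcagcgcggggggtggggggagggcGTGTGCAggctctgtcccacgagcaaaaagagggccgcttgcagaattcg
Mt1: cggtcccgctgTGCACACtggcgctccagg
Slc30a1: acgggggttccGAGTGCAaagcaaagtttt

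Mt2 held 3 matches, beginning 223, 128 and 50 bases before its start. Mt1 held 1 match, 23 bases before its start, and Slc30a1 held 1 match, 43 bases before its start. Slc30a4 held 2 matches, while Mtf1, Slc39a1 and Slc39a10 held none in the windows of the same length. Entries were at hand for 7 of the 9 genes. Only the 250 bases before each annotated start were searched, and bases after it were not. These counts are therefore not totals for a gene, and they depend on where the start is annotated. Of 32851 windows of that length in the same table, 21.4% held at least 1 match and 1.26% held at least 3. The antioxidant response element (TGACNNNGC, on either strand), present in 10.2% of the windows, had 1 match each in Mt2, Slc30a1 and Slc39a1. The STAT motif (TTCNNNGAA), present in 7.02%, matched in 1 of the 2 windows of Slc39a10. A match is a match of letters, not evidence of binding, and the binding of any factor was not measured here.

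Library totals ran from 17588357 to 18675283 estimated counts. Levels below are CPM (a gene's share of its library, scaled to a common library size) after TMM scaling, a correction for differences in RNA composition. The mean TMM factor of Con was 1.51, against 0.902 to 0.932 in the other groups, so the choice of scaling bears on every comparison with Con. The macrophage markers, 8 of 8, were above 1 CPM in every group and summed to between 8336 and 12870 CPM per library. The neutrophil list was also detected, 8 of 8 markers above 1 CPM in every group, at sums of 1043 to 1297 CPM per library in Con and 1720 to 2398 in LPS. These sums were 3092 to 4464 CPM in STSABs and 3002 to 3967 in UVABs, with Ngp and S100a9 the most abundant. Sums of the endothelial list were 43.5 to 46.2 CPM in Con and 439 to 538 in LPS, most of it from Kdr (31.7 and 468 mean CPM). Cdh5 had 2.36 and 4.42, and Pecam1 10.72 and 11.15. Those of the osteoclast list were 69.6 to 80.2 CPM in Con and 176 to 224 in LPS, most of the LPS sum from Acp5. Ctsk had 26.5 mean CPM in Con and 38.5 in LPS, and Ocstamp went the other way, with 13.96 and 8.06. These sums thus rest largely on single genes. In bulk RNA, fewer cells of a type and less RNA per cell cannot be told apart. Replicate 2 of STSABs and replicate 2 of UVABs stood apart from the rest of their groups over all genes: chi-square per degree of freedom was 19.8 to 33.4 for pairs with them and at most 9.04 for the other pairs of those groups. Results that rest on these libraries are given with and without them. Each change is a log2 fold change with its SE, from an edgeR quasi-likelihood model of all 18 libraries. The words rose, fell, higher and lower are used of genes whose Benjamini-Hochberg adjusted p, over all tested genes, was below 0.05.

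LPS against Con asks how the positive control for inflammation changed these genes. Both metallothioneins, their regulator Mtf1 and 4 transporters rose, and the importers Slc39a6 and Slc39a10 fell. The largest change among the 9 was that of Mt2. All 9 passed the test, 7 higher and 2 lower, where 83% of all tested genes passed, 40% higher and 43% lower. Their median change was 0.85, beside -0.03 over all tested genes, and their median absolute change was 1.03, beside 0.76. A count of 9 of 9 against that background says little by itself. Ranked by absolute change among all tested genes, Mt2 was at percentile 92.2, Mt1 at 76.1 and Slc30a1 at 68.6. The others lay between 44.6 (Slc39a14) and 66.8 (Slc39a10), so most of these changes were of ordinary size for this comparison. The neutrophil, endothelial and osteoclast marker sums given above also differed between these groups, and their part in the changes was not tested.

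Mt1 stood at 100.4, 104 and 114 CPM in the Con libraries and at 258, 306, 336, 269 and 396 CPM in the LPS libraries. Every LPS library was above every Con library, and the LPS libraries spread widely, the highest 1.53 times the lowest. Mt1 rose by 1.56 ± 0.11 (adjusted p = 2.01e-11), from a mean of 106 ± 7.23 (SD, n = 3) to 313 ± 55.6 CPM (SD, n = 5). Mt2 stood at 32.8, 29.3 and 32.4 CPM in Con and at 199.6, 236, 254, 207 and 314 CPM in LPS. The gap between the groups was wider than for Mt1, and the same LPS libraries, replicates 5 and 3, were the highest for both genes. Mt2 rose by 2.94 ± 0.12 (adjusted p = 1.02e-15), from 31.5 ± 1.91 to 242 ± 45.9 CPM.

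**Figure D1:**
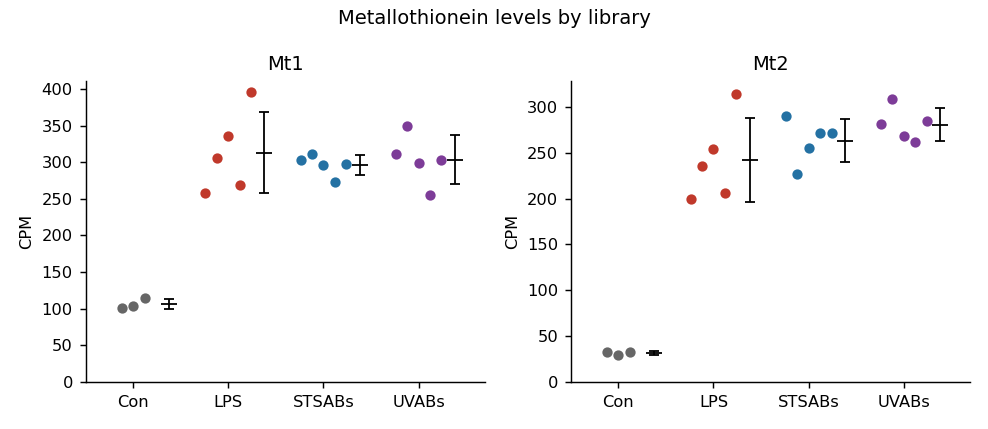
Levels of Mt1 and Mt2 in CPM (vertical axes, from 0) by group; points are libraries in replicate order, and the bars beside them are the mean and SD. Con lies below every other library for both genes (100.4 to 114 CPM for Mt1, 29.3 to 32.8 CPM for Mt2), and LPS, STSABs and UVABs overlap.

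The balance between the 2 genes differed too. The ratio of Mt2 to Mt1 counts within a library does not depend on scaling between libraries, and it was examined after the values of both genes had been seen. It was 0.327, 0.282 and 0.284 in Con and 0.773, 0.770, 0.755, 0.767 and 0.793 in LPS. The groups were far apart, and the LPS ratios lay close together. Their coefficient of variation was 1.78%, while that of the levels was 17.8% for Mt1 and 19.0% for Mt2, so the libraries high in one were high in the other by nearly the same factor. The mean ratio was 2.60-fold higher in LPS (log2 difference 1.38 ± 0.07), with an exact two-sided permutation p of 0.0357, the smallest that 5 against 3 libraries allow in this test, and 0.0536 after adjustment over the 6 comparisons.

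The longest identical run between the principal Mt1 and Mt2 transcripts of GENCODE M21 was 20 bases, and reads were 150 bases long. Per kilobase of transcript, Mt1 was the most abundant of the 9 in Con at 193.5 ± 13.2 CPM per kb, followed by Mt2 at 61.7 ± 3.74, and these levels did not overlap. In LPS the order was kept but narrowed, to 570.4 ± 101 for Mt1 and 474 ± 89.8 for Mt2 (SD, n = 5), with ranges that overlapped.

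**Figure D2:**
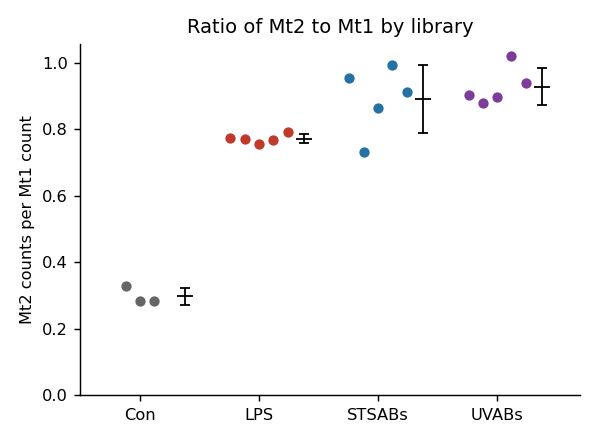
Mt2 counts divided by Mt1 counts in each library (vertical axis, from 0) by group; points are libraries, and bars are the mean and SD. Con lies between 0.282 and 0.327, LPS between 0.755 and 0.793, and the STSABs and UVABs libraries between 0.731 and 1.02.

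Mtf1, the zinc sensor, stood at 18.3, 18.6 and 17.4 CPM in Con and at 35.9, 35.7, 36.9, 35.1 and 33.0 CPM in LPS. These libraries varied little, and the groups did not overlap. It rose by 0.97 ± 0.06 (adjusted p = 6.50e-13). Mtf1 overlaps 1110065P20Rik on the opposite strand, and the strand setting of the counting is not given in the sources used here, so reads of that gene could have entered its count. The same limit holds for Mt2 (Gm45774), Slc30a1 (1700034H15Rik) and Slc30a4 (4930417H01Rik), whose overlapping genes are not in the count table. It bears on the ratio of Mt2 to Mt1 as well.

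Slc30a1, the exporter of the plasma membrane, stood at 11, 11.2 and 12.1 CPM in Con and at 23.8, 31.3, 27.8, 23.8 and 29.5 CPM in LPS. The lowest LPS library was above the highest Con library, and Slc30a1 rose by 1.25 ± 0.09 (adjusted p = 1.59e-11). Slc30a4, which loads zinc into vesicles, stood at 77.3, 75.6 and 74.8 CPM in Con and at 145, 121, 112, 122 and 128 CPM in LPS. It rose by 0.73 ± 0.13 (adjusted p = 2.66e-05) without overlap.

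Of the importers, Slc39a1 of the plasma membrane stood at 81.2, 89.4 and 89.7 CPM in Con and at 145, 164, 160.4, 155 and 157 CPM in LPS. It was the most abundant of the 6 transporters named at the outset, per kilobase of transcript, in both groups, at 36.7 ± 2.03 and 66.1 ± 2.93 CPM per kb, and rose by 0.85 ± 0.06 (adjusted p = 2.95e-11). Slc39a14, an importer of zinc, manganese and iron known from the acute-phase response of the liver, stood at 23.1, 22.7 and 23.0 CPM in Con and at 30.8, 37.9, 38.4, 36.3 and 36.3 CPM in LPS. Replicate 1 of LPS was the lowest of its group yet above all of Con. Slc39a14 rose by 0.65 ± 0.09 (adjusted p = 5.42e-07).

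Slc39a6 and Slc39a10, related importers that can work as partners, moved the other way. Slc39a6 stood at 23.0, 22.3 and 20 CPM in Con and at 9.40, 10.9, 11.2, 10.4 and 11.7 CPM in LPS, and it fell with a change of -1.02 ± 0.09 (adjusted p = 4.42e-10). Slc39a10 stood at 16.5, 17.0 and 16.1 CPM in Con and at 6.4, 7.57, 8.39, 6.24 and 7.49 CPM in LPS, and its change was -1.20 ± 0.09 (adjusted p = 8.68e-11). For both genes every LPS library lay below every Con library. Per kilobase of transcript, Slc39a6 went from the fifth place among the 9 in Con (5.61 ± 0.409 CPM per kb) to the eighth in LPS (2.76 ± 0.222). Slc39a10 took the last place in LPS, at 1.31 ± 0.163.

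The scaling between libraries set the size of these changes and the direction of some. With upper-quartile scaling the median change of all tested genes was -0.31, and with library totals alone it was -0.78, beside -0.03 with TMM. The share of higher genes among all calls was 48.2% with TMM, 36.0% with upper quartiles and 21.2% with totals. With totals alone, Mt1 and Mt2 still rose (0.81 and 2.20), as did Mtf1 (0.22) and Slc30a1 (0.51), while Slc39a1 did not pass (0.10, adjusted p = 0.12). Under the same scaling the direction turned for Slc30a4 (-0.02, adjusted p = 0.904) and Slc39a14 (-0.10, adjusted p = 0.306), and neither passed. The changes of Slc39a6 and Slc39a10 were -1.77 and -1.94. Relative to the median of all genes, the change of each gene was nearly the same under each scaling, for example 1.59 for Mt1, 0.76 for Slc30a4, 0.68 for Slc39a14 and -0.99 for Slc39a6. A scaling shifts all genes of a comparison by nearly the same amount, so this would hold for any gene. It is no check on which scaling gives the right direction.

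**Figure D3:**
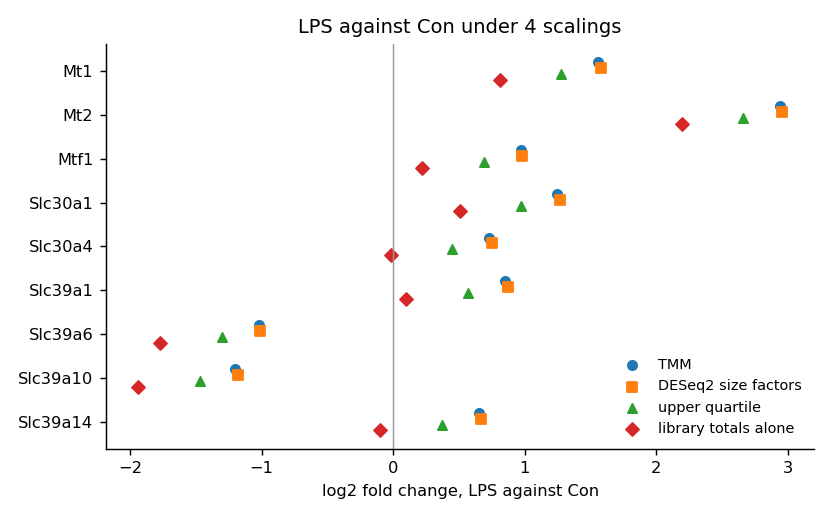
Log2 fold change of LPS against Con (horizontal axis) for the 9 genes under 4 scalings, each with its own symbol. All points of a gene shift to the left together from TMM to library totals alone, and those of Slc30a4 and Slc39a14 cross 0 (to -0.02 and -0.10).

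The comparison of each apoptotic-body group with LPS asks how levels under these treatments differ from those of the positive control. Both used the same LPS libraries, so their values are set side by side and are not independent. The metallothioneins did not pass the test in either comparison, the exporters Slc30a1 and Slc30a4 and the importers Slc39a6 and Slc39a14 were lower, and Mtf1 and Slc39a10 were higher. In each comparison 6 of the 9 genes passed, 2 higher and 4 lower, where 57.4% of all tested genes passed for STSABs (28.4% higher, 29% lower) and 57.4% for UVABs (28.6% higher, 28.8% lower). Their median change was -0.08 for STSABs and -0.05 for UVABs, beside -0.01 and 0.00 over all tested genes. The summed neutrophil markers of every library of both apoptotic-body groups lay above those of every LPS library (sums given above), and their part in these differences was not tested.

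Mt1 stood at 303, 311, 296, 273 and 297 CPM in STSABs and at 312, 349.8, 298, 255 and 303 CPM in UVABs. All but replicate 4 of UVABs, at 255 CPM, lay within the range of the LPS libraries. The difference from LPS was -0.08 ± 0.09 for STSABs (adjusted p = 0.469; 95% interval -0.28 to 0.12) and -0.05 ± 0.09 for UVABs (adjusted p = 0.700; -0.24 to 0.15). Mt2 stood at 289.6, 227, 256, 272 and 271 CPM in STSABs and at 281, 308, 268, 261 and 284 CPM in UVABs. These also overlapped LPS, with differences of 0.12 ± 0.09 (adjusted p = 0.276) and 0.21 ± 0.09 (adjusted p = 0.0523). Without replicate 5 of LPS, the highest LPS library, both passed, at 0.23 (adjusted p = 0.0128) and 0.33 (adjusted p = 0.00106). The UVABs value ran from 0.15 to 0.33 over 30 alternative analyses and passed in 13 of them, among them the one with the replicate number as a block (0.23, adjusted p = 0.0287).

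The ratio of Mt2 to Mt1 was 0.956, 0.731, 0.864, 0.994 and 0.913 in STSABs and 0.903, 0.881, 0.899, 1.02 and 0.940 in UVABs. All UVABs libraries and 4 of 5 STSABs libraries were above the highest LPS library, and replicate 2 of STSABs was below the lowest. The mean ratio was 1.20-fold that of LPS in UVABs (log2 difference 0.27 ± 0.04; exact two-sided permutation p = 0.00794, the smallest that 5 against 5 libraries allow, 0.0476 after adjustment over the 6 comparisons). In STSABs it was 1.15-fold (0.20 ± 0.08; exact two-sided permutation p = 0.0476, adjusted 0.0571). Without replicate 2 of STSABs the latter difference was 0.27, with an adjusted p of 0.0477 from the same exact test. With any single library of LPS or UVABs left out, the UVABs difference was 0.23 to 0.28 and did not pass (adjusted p of 0.0685 to 0.0714, exact test). All UVABs libraries stayed above all LPS libraries in each case, so each test gave the smallest p it allows. That smallest p rises with fewer libraries, so these tests cannot tell whether the difference rests on single libraries. The STSABs p without replicate 2 was also the smallest allowed. Per kilobase of transcript, the metallothioneins were nearly level in UVABs, at 553 ± 61.6 CPM per kb for Mt1 and 549.3 ± 35.4 for Mt2 (SD, n = 5).

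Mtf1 stood at 37.8, 38.2, 37.2, 40.1 and 41.0 CPM in STSABs and at 40.0, 37.1, 39.0, 41.4 and 39.8 CPM in UVABs. Every one of these was above the highest LPS library, by a small margin. The changes were 0.14 ± 0.05 (adjusted p = 0.0186) and 0.16 ± 0.05 (adjusted p = 0.00752). That of STSABs did not pass without replicate 5 of LPS or without replicate 5 of STSABs (0.12 each), and neither passed with replicates 1 to 3 only (0.07 and 0.10).

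Slc30a1 stood at 17.7, 17.5, 18.3, 20.4 and 20.3 CPM in STSABs and at 17.2, 19.2, 18.9, 19.5 and 18 CPM in UVABs. These libraries formed a narrow band between Con and LPS that overlapped neither. The changes from LPS were -0.53 ± 0.08 (adjusted p = 3.89e-06) and -0.55 ± 0.08 (adjusted p = 2.52e-06). Slc30a1 and the metallothioneins, classical targets of the same factor, stood at different places relative to LPS in these groups, Slc30a1 lower and Mt1 and Mt2 not passing the test, though the difference between their changes was not tested.

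Slc30a4 stood at 92.1, 64.2, 95.5, 104 and 101 CPM in STSABs and at 92.5, 65.3, 91.2, 103 and 98.3 CPM in UVABs. All were below the lowest LPS library, and in both groups replicate 2 was far below the others and below every Con library. The changes from LPS were -0.46 ± 0.11 (adjusted p = 0.00138) and -0.48 ± 0.11 (adjusted p = 0.000954). With the libraries numbered 2 of both groups left out they were -0.36 and -0.38, and both still passed.

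**Figure D4:**
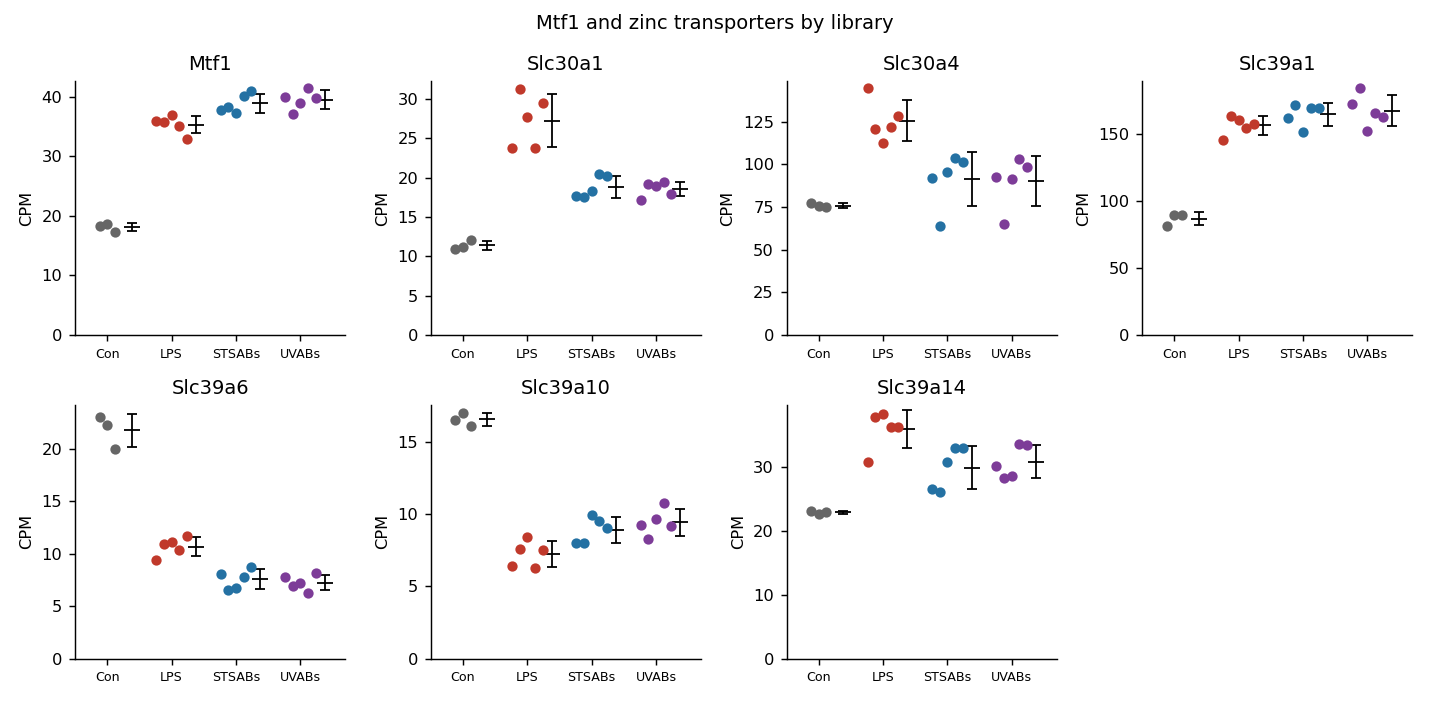
Levels of Mtf1 and the 6 transporters in CPM (vertical axes, from 0) by group; points are libraries in replicate order, and bars are the mean and SD. Slc30a1 in STSABs and UVABs (17.2 to 20.4 CPM) lies between Con and LPS, Slc39a6 lies below both, and replicate 2 of both apoptotic-body groups is low for Slc30a4 (64.2 and 65.3 CPM).

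Among the importers, Slc39a6 stood at 8.11, 6.56, 6.77, 7.78 and 8.75 CPM in STSABs and at 7.76, 6.95, 7.19, 6.29 and 8.17 CPM in UVABs. Every library was below the lowest LPS library, so the level lay further from Con than in LPS. The changes from LPS were -0.49 ± 0.09 (adjusted p = 8.82e-05) and -0.56 ± 0.09 (adjusted p = 2.32e-05). Slc39a10 stood at 7.99, 8.02, 9.94, 9.53 and 9.05 CPM in STSABs and at 9.22, 8.26, 9.68, 10.8 and 9.16 CPM in UVABs. It was above LPS with some overlap, and the changes were 0.30 ± 0.09 (adjusted p = 0.00844) and 0.38 ± 0.09 (adjusted p = 0.00130). The partners Slc39a6 and Slc39a10, both lower in LPS than in Con, differed from LPS in opposite directions. With replicates 1 to 3 only, the changes of Slc39a10 were 0.22 and 0.29 and did not pass.

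Slc39a14 stood at 26.6, 26.1, 30.8, 33.0 and 33.1 CPM in STSABs and at 30.3, 28.3, 28.7, 33.6 and 33.5 CPM in UVABs. The groups overlapped LPS only through its replicate 1, at 30.8 CPM. The changes were -0.26 ± 0.08 (adjusted p = 0.00518) and -0.22 ± 0.08 (adjusted p = 0.0173), and the latter did not pass with library totals alone (-0.18, adjusted p = 0.0555). Slc39a1 stood at 162, 171, 151, 169 and 169 CPM in STSABs and at 172, 184, 152, 165 and 163 CPM in UVABs. It overlapped LPS, with differences of 0.07 ± 0.05 (adjusted p = 0.238) and 0.10 ± 0.05 (adjusted p = 0.116). The second passed with library totals alone (0.14) and without replicate 3 of UVABs (0.13).

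**Figure D5:**
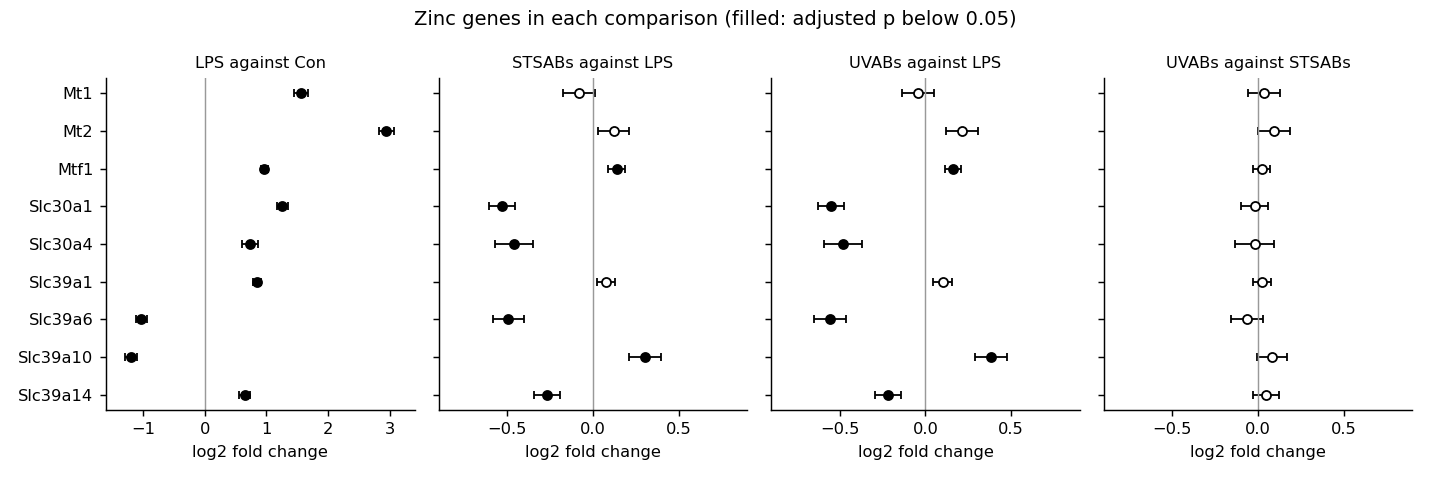
Log2 fold changes (horizontal axes; the first panel has a wider range) of the 9 genes in 4 comparisons, with bars of 1 SE; filled points had an adjusted p below 0.05. The panels of STSABs and UVABs against LPS share the LPS libraries and show the same 6 genes filled, and no point is filled for UVABs against STSABs; with library totals alone, Slc30a4 and Slc39a14 turn to -0.02 and -0.10 in LPS against Con.

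UVABs against STSABs compares the inducers, UV and STS, of the apoptotic bodies. None of the 9 genes passed, and none of the 12465 genes tested did (0%) with edgeR, DESeq2 or limma-voom. At an unadjusted p under 0.05, edgeR gave 198 genes, DESeq2 151 and limma-voom 191, and none of the 9 was among those of edgeR. Each count is below a share of 0.05 of all tested genes, the share this threshold would give with no difference. The differences ran from -0.06 (Slc39a6, 95% interval -0.27 to 0.14) to 0.09 (Mt2, -0.10 to 0.29). The narrowest interval was that of Mtf1 at -0.08 to 0.12, and the widest that of Slc30a4 at -0.26 to 0.22. The ratio of Mt2 to Mt1 differed by 0.07 ± 0.09 on the log2 scale (exact two-sided permutation p = 0.532, adjusted 0.532). Deviations of same-numbered libraries from their group means were correlated, most for replicate 2 (0.54), which stood apart in both groups. Whether the numbers pair the samples is not known, and the intervals and the ratio test above did not use them. A fit of the genes with the replicate number as a block gave no call either.

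Against Con, both apoptotic-body groups showed 6 of the 9 genes higher, 2 lower and 1 not passing, where 82.6% of all tested genes passed for STSABs (40% higher, 42.6% lower) and 82.6% for UVABs (40.2% higher, 42.4% lower). Mt1 was higher by 1.48 ± 0.11 in STSABs (adjusted p = 5.12e-11), and Mt2 by 3.06 ± 0.13 (adjusted p = 5.83e-16). In UVABs these changes were 1.51 and 3.15. Mtf1 was higher by 1.10 and 1.13, Slc39a1 by 0.92 and 0.95 and Slc30a1 by 0.72 and 0.70. Slc39a14 was higher by 0.38 and 0.43. The changes of Slc39a6 were -1.52 and -1.58, and those of Slc39a10 were -0.89 and -0.81. Slc30a4 did not pass in either group (0.27 ± 0.13, adjusted p = 0.0615, and 0.25 ± 0.13, adjusted p = 0.0823). With the libraries numbered 2 left out it did, at 0.37 and 0.34. With library totals alone, Slc30a4 (-0.43 and -0.46) and Slc39a14 (-0.31 and -0.28) turned lower and passed, and Slc30a1 no longer passed.

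The rest of both transporter families and of the metallothioneins gave a wider view of the same pathway. Of 20 such genes, 17 were in the table and 13 were tested. In LPS against Con 8 of the 13 were higher, 3 lower and 2 did not pass, with a median change of 0.29 beside -0.03 over all tested genes. These 11 of 13 stand beside 83% of all tested genes passing (40% higher, 43% lower). Slc39a2, an importer, had the largest change (1.28 ± 0.11), followed by the importer Slc39a8 (0.86 ± 0.18) and Slc30a6 (0.83), which moves zinc into the secretory pathway. Slc39a11 (-0.54), Slc30a5 (-0.53) and Slc39a13 (-0.30) were lower, and Slc39a4 (0.03) and Mt3 (0.67) did not pass. Slc39a13 overlaps Psmc3 on the opposite strand, and with the strand setting not given, reads of Psmc3 could have entered its count. With library totals alone the split was 1 higher and 9 lower, while Mt1 and Mt2 stayed higher under that scaling.

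Against LPS, 2 of these 13 genes were higher and 8 lower in each apoptotic-body group, and the median changes were -0.26 and -0.27, where 57.4% of all tested genes passed in each (28.4% higher and 29% lower for STSABs, 28.6% and 28.8% for UVABs). With replicates 1 to 3 only, 2 were higher and 5 lower in each group. Slc39a8 stood at 5.09, 5.03, 5.51, 5.22 and 5.34 CPM in LPS, at 3.88, 2.61, 3.95, 4.39 and 3.88 CPM in STSABs and at 3.15, 1.44, 3.09, 3.84 and 3.00 CPM in UVABs. All libraries of both groups were below LPS, with replicate 2 the lowest in each, and the changes were -0.48 ± 0.16 and -0.85 ± 0.16. With the libraries numbered 2 left out they were -0.38 (adjusted p = 0.00296) and -0.68 (adjusted p = 7.50e-06). Slc39a2 was higher (0.62 ± 0.09 and 0.57 ± 0.09), as was Slc30a9 (0.30 and 0.36). Slc30a5, a transporter of the early secretory pathway, was lower by a change of -0.54 ± 0.06 and -0.46 ± 0.06. Slc39a7, which releases zinc from the endoplasmic reticulum, changed by -0.47 and -0.44. Slc39a2 overlaps Mettl17 on the same strand, so its counts are uncertain.

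Across the 18 libraries, log2 CPM of Mt1 and Mt2 had a Pearson r of 0.98, and 0.77 over deviations from the group means. The libraries share the group differences described above, so such values are descriptions. The genes whose pattern was most like that of Mt1 were Med15, Ppp2r1a, Tcirg1, Batf2 and Rela, each with r of 0.98. After subtraction of group means their r with Mt1 was between 0.65 and 0.76. For Slc39a14 they included Abcc5 (0.96), Zfp563 (0.95), Prrc2c (0.94) and Rnf149 (0.94). Among the 9 genes, Slc39a14 had its highest r across libraries with Slc30a1 (0.91), and over deviations with Slc39a10 (0.69, beside 0.56 for Slc30a1). Levels of Mtf1 and Mt1 had an r of 0.92 across libraries and -0.60 over deviations.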

How the data were processed

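Poly(A) RNA of 18 libraries was measured. Per the submitters' processing notes, reads were handled with HISAT2 on mm39. The annotation, tool versions, counting tool and strand setting were not given in the sources used here. Values are estimated counts per gene symbol, deposited by the authors without normalization. Of all values 6.35% were not whole, none of them among the 9 genes, and they were rounded. Totals of 17588357 to 18675283 set the precision. No pair of replicates agreed within sampling noise (chi-square per degree of freedom 2.30 to 33.4).

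Genes were filtered with filterByExpr, scaled by TMM and tested with edgeR 4.0.16 in R 4.3.3 (quasi-likelihood, group means), with Benjamini-Hochberg adjustment over 12465 genes. The SE is the absolute log2 fold change over the square root of F, and 95% intervals use it with 14 residual degrees of freedom. The script was tested on simulated counts. Ratios were compared with exact permutation tests in SciPy 1.17.1. Alternatives were DESeq2 1.42.0, limma-voom (limma 3.58.1), other scalings and filters, other subsets and terms, each library left out in turn, and a replicate block.

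All 9 genes and the list of 20 related genes were named whatever their change. For likeness, the 5 genes with the highest correlation with Mt1 and with Slc39a14 were taken, without predicted genes, and 1 of them is not reported here. Members and lists were chosen with earlier results of these data known. Deviations from group means of same-numbered UVABs and STSABs libraries had correlations of 0.116 to 0.540, the highest for replicate 2. Of the 5 pairs, 4 correlated best with their own number. Replicate 2 stood apart in both groups, which gives the other libraries of both a shared opposite deviation whatever their numbers. Correlations above 0.1 therefore cannot show that the numbers pair the samples. In the other comparisons, not every pair was above 0.1. Protein sequences and a genome of build mm39 were not used here.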

Additional observations from a re-analysis of the deposited data

Results flagged for a closer look

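In 30 sets of libraries (each gene and group with 5 libraries, and the ratio), the lowest and the highest library were compared with the rest, which by chance picks out about 1 set in 20. Slc30a4 in replicate 2 of STSABs, at 64.2 CPM, lay far below the other 4 libraries at 92.1 to 104 CPM, a gap of 0.71 of the range. The library of the same number in UVABs was as low, at 65.3 CPM. Slc39a14 in replicate 1 of LPS, at 30.8 CPM, lay below the other LPS libraries at 36.3 to 38.4 CPM, a gap of 0.73 of the range.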

How the results depend on the processing

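Over 30 alternatives, 1577 of 1620 values of the 9 genes in the 6 comparisons stayed on the same side of the threshold, and the numbers of genes called kept within 1.5 times. Most alternatives left out 1 library, often of a group outside the comparison, and UVABs against STSABs had no call under any of them. That share therefore says little about how firm the calls are. Directions of values that passed before or after turned only with library totals alone: LPS against Con for Slc30a4 (-0.02) and Slc39a14 (-0.10), STSABs against Con for Slc30a4 (-0.43) and Slc39a14 (-0.31), and UVABs against Con for Slc30a1 (-0.00), Slc30a4 (-0.46) and Slc39a14 (-0.28). That scaling leaves out the TMM factors, which were higher in Con. Over these alternatives, 19 values that passed in neither fit changed sign. With upper quartiles, Slc39a14 did not pass against Con in STSABs (0.12, adjusted p = 0.197) or UVABs (0.16, adjusted p = 0.0815).

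Leaving out 1 library at a time, the log2 ratio of Mt2 to Mt1 differed by 1.34 to 1.45 for LPS against Con, by 0.23 to 0.28 for UVABs against LPS and by 0.16 to 0.27 for STSABs against LPS. With 1 library of LPS or UVABs left out, the exact test of UVABs against LPS gave adjusted p of 0.0685 to 0.0714. Each came from the smallest p that the test then allows, so it cannot tell whether the difference rests on single libraries. With both libraries numbered 2 left out, an alternative chosen after seeing the data like the others of this ratio, the STSABs difference was 0.27 (adjusted p = 0.0477). Without replicate 5 of LPS, Mt2 passed for STSABs against LPS (0.23, adjusted p = 0.0128).

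With the replicate number as a block, Mt2 passed for UVABs against LPS (0.23, adjusted p = 0.0287). Pairing by number was not shown for this comparison or for UVABs against STSABs, where the block changed no call. Depth limits the rarest related genes: Slc30a2, Slc30a3, Slc39a5 and Slc39a12 were not tested, and Mt3 was tested at 0.386 to 0.619 mean CPM.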
